A study of Mus musculus with 9 samples.

Results

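Expression of 8 genes of the epicardium and of related mesothelia was followed in E10.5 mouse hearts from which *Ctcf* had been deleted with *Nkx2.5-Cre*. The genes were *Wt1*, *Tcf21*, *Aldh1a2*, *Upk1b*, *Upk3b*, *Krt8*, *Krt18* and *Krt19*. They were taken by name, all 8 were found, and they are 8 of the 14011 genes in the deposited table. RNA was sequenced from 9 pools of 6 hearts, in 3 groups of 3. Controls carried floxed *Ctcf* without Cre (given as *Ctcf* fl/fl by the labels and as *Ctcf* fl/+ by the paper), heterozygotes were *Ctcf* fl/+; *Nkx2.5-Cre*/+ and homozygotes were *Ctcf* fl/fl; *Nkx2.5-Cre*/+. The strain is given as mixed. The question was what the loss of CTCF, a DNA-binding protein that shapes chromatin loops, does to transcription in the developing heart. *Nkx2.5-Cre* acts in cardiac progenitors, and whether epicardial cells had lost *Ctcf* was not measured in these whole-heart libraries. Since controls lack the driver, an effect of the driver and one of the deletion cannot be told apart in comparisons with controls, whereas homozygotes and heterozygotes both carry it.

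The epicardium is the outer epithelial layer of the heart. It grows out from the proepicardium, a cluster of mesothelial cells at the venous pole, and spreads over the myocardium around midgestation; some of its cells later leave the epithelium and give rise to fibroblasts and mural cells of the coronary vessels. WT1 and TCF21 are transcription factors of this lineage, and ALDH1A2 makes the retinoic acid by which it signals to the myocardium. UPK1B and UPK3B are membrane proteins first known from the urothelial surface and shared by mesothelia, and keratins 8, 18 and 19 form the intermediate filaments of simple epithelia, in which a type II keratin (8) pairs with a type I keratin (18 or 19). In whole hearts, more cells of a type and more RNA per cell cannot be told apart.

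The total number of reads per library ranged from 4294537 to 11629365, and between 134 and 2423 reads stood behind each value of the 8 genes. Values are reads scaled to the effective library size (the CPM scale), and differences are given on the log2(value + 0.5) scale with their standard error (SE) from limma, fitted to all 14011 genes and 9 libraries; a gene was called at a Benjamini-Hochberg adjusted p under 0.05. The deleted gene gave a check of the labels. *Ctcf* was at 121 to 122 in control libraries, 94.2 to 101 in heterozygote libraries and 79.6 to 84.7 in homozygote replicates, without overlap. One library stood apart. Control library 1 held a summed value of 1404 over 16 visceral endoderm and liver markers (*Afp* 595, *Apob* 145, *Apoa1* 115), against 116 to 232 in the other 8 libraries, and 71.4 over 11 foregut and simple epithelium markers, against 14.8 to 35.7. Several results are also given without it. Nothing says that the pools of a group came from separate litters, so p-values measure the spread between these pools.

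Promoters are shown for *Upk3b*, the most abundant of the genes that rose, and for *Krt8* and *Krt18*, neighbours on chromosome 15 whose differences from controls had opposite signs. They are RefSeq sequences of build GRCm38.p6, from 250 bases before to 50 bases after the start of transcription, on the gene's own strand. Capitals mark matches to TATAAA or AGATAA (the GATA motif) on either strand.
*Upk3b* promoter (chr5:136038246-136038545, plus strand): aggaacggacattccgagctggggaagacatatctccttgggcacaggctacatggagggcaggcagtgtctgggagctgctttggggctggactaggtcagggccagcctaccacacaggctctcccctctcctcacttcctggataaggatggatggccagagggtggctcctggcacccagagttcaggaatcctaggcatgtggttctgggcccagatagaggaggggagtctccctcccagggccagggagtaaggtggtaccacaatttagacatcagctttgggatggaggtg
*Krt8* promoter (chr15:102004293-102004592, minus strand): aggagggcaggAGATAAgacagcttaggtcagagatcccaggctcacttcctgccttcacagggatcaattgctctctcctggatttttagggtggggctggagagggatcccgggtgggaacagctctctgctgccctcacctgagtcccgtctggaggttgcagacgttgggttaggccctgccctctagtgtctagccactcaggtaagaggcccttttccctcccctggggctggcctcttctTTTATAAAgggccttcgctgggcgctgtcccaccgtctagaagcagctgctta
*Krt18* promoter (chr15:102027966-102028265, plus strand): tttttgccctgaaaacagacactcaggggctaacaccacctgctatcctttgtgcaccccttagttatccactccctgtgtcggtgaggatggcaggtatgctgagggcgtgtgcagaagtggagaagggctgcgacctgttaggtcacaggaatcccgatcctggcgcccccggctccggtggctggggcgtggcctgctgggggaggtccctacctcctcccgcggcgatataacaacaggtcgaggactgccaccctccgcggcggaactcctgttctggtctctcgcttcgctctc

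The promoters of the keratin pair differed in these letters. *Krt8* held TATAAA on both strands in overlapping matches beginning 3 bases and 1 base before the RefSeq start, and AGATAA near the far end of the window, whereas *Krt18* held neither. TATAAA was in 13.6% and AGATAA in 11.2% of all 32851 promoters of that length. *Krt18* and *Upk3b* held GNGGGNG, a core shared by WT1 and EGR factors, and *Krt8* did not; 64.7% of all promoters held it. GGGCGG (the GC box, 35.7% of all promoters) and AGGGGGC (a CTCF core, 10.6%) were in none of these 3 windows. CANNTG, the E-box read by TCF21 and other bHLH proteins, was in all 3 and in 72.3% of all promoters.

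Per kilobase of annotated exon, *Upk3b* was the most abundant of the 8 genes in every library. Its control mean was 70.6 ± 6.90 (SD, n = 3), ahead of *Tcf21* at 31.8 ± 4.03, and the ranges did not overlap in any group. *Tcf21*, *Krt18* (27.3 ± 5.53), *Krt8* (26.2 ± 4.33) and *Upk1b* (23.9 ± 1.67) followed in control libraries, and each of these neighbours overlapped the next. *Aldh1a2* (18.2 ± 2.50) was below *Upk1b* in 3 of 3 control libraries, overlapped *Krt19* (15.8 ± 0.430), and *Wt1* (7.50 ± 0.607) came last. The exons of *Wt1* add up to 6195 bases although its longest coding transcript has 3092, so its level per kilobase depends on which exons are in use. In homozygotes *Upk1b*, at 41.7 ± 1.72 per kilobase, was above *Krt8*, at 18.6 ± 3.24, in 3 of 3 libraries, whereas in control libraries *Krt8* was the higher in 2 of 3.

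Of the 8 genes, 4 rose in homozygotes against controls (*Wt1*, *Upk1b*, *Upk3b* and *Krt18*) and none fell, where 7.19% of all genes rose and 8.03% fell. Against heterozygotes 3 rose (*Wt1*, *Upk1b* and *Upk3b*) and none fell, where 6.87% of all genes rose and 6.7% fell. The median log2 fold change of the 8 was 0.41 against controls and 0.33 against heterozygotes, compared with 0.00 over all genes in both. Every homozygote library was above every control library for 6 of the 8 genes, a pattern that 16.6% of all genes showed, and above every heterozygote library for 5 of the 8 (15.3% of all genes). These comparisons share the homozygote libraries. Between heterozygotes and controls no gene of the 8 was called by limma, and 0 had an unadjusted p under 0.05; edgeR and DESeq2 also called 0, and of all genes 0.0928% were higher and 0.05% lower. Without control library 1 the count was again 4 against controls, and it became 4 against heterozygotes, with *Aldh1a2* added.

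**Figure D1:**
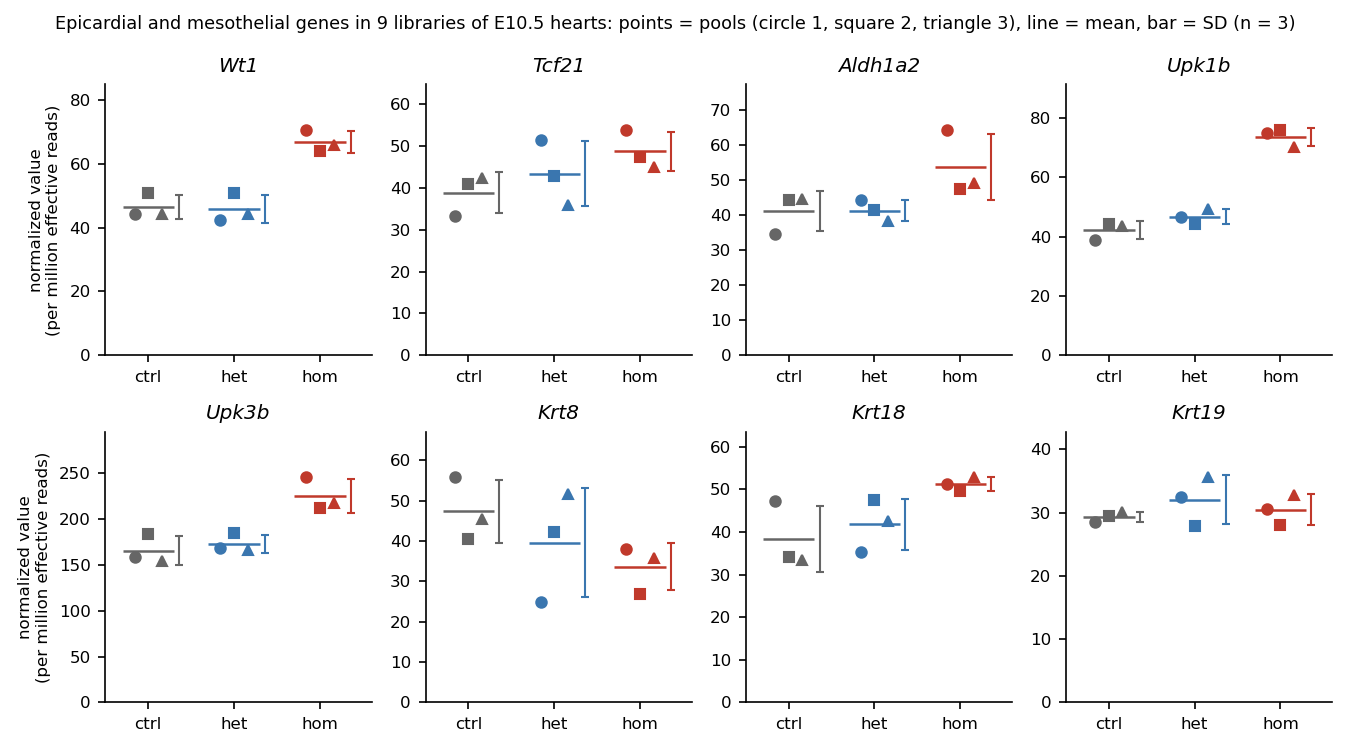
Normalized value (vertical axis, CPM scale, from 0) of the 8 genes in each pool of control (ctrl, grey), heterozygote (het, blue) and homozygote (hom, red) hearts, with the mean as a line and the SD as a bar (n = 3). Homozygote points lie above all others for *Wt1*, *Aldh1a2*, *Upk1b*, *Upk3b* and *Krt18*, and the 3 groups overlap for *Krt19*.

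*Wt1* (ENSMUSG00000016458, chr2:104966686-105013773, plus strand, NCBIM37) encodes the zinc finger factor that marks the proepicardium and the epicardium. Its value was 44.2, 50.8 and 44.4 in control libraries 1 to 3, 42.4, 50.8 and 44.2 in heterozygote libraries 1 to 3 and 70.7, 63.9 and 66.0 in homozygote replicates 1 to 3. All 3 homozygote pools were above all 6 others, and controls and heterozygotes covered nearly the same range. The rise was 1.44-fold against controls (log2 fold change 0.52, SE 0.085, limma adjusted p = 0.00153) and 1.46-fold against heterozygotes (0.54, adjusted p = 0.00133). Heterozygotes differed from controls by -0.02 (95% interval -0.20 to 0.16, adjusted p = 0.979). The nearest gene in the table, the lincRNA *AI314831*, starts 19 bases from *Wt1* on the opposite strand. It was low (means of 2.61, 2.20 and 3.72 in controls, heterozygotes and homozygotes) and was not called (0.39 against controls, adjusted p = 0.342). How the counting treated strand is not given in the sources used here, so reads at this shared boundary could not be assigned by strand with certainty.

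*Tcf21* (ENSMUSG00000045680, chr10:22537085-22539934, minus strand) encodes the bHLH factor needed for epicardial cells to become cardiac fibroblasts. Control libraries 1 to 3 held 33.2, 40.8 and 42.5, heterozygote libraries 51.4, 43.0 and 35.9, and homozygote replicates 53.9, 47.3 and 44.9. Homozygotes were above all controls, but heterozygote library 1 was above 2 of the 3 homozygote pools. The difference was not called: 0.33 against controls (95% interval 0.06 to 0.60, limma adjusted p = 0.0982) and 0.18 against heterozygotes (-0.10 to 0.45, adjusted p = 0.400). *Tcf21* was not called in any of the 21 alternative analyses, in which its log2 fold change against controls ranged from 0.21 to 0.39. Against heterozygotes it was 0.30 without heterozygote library 1 (adjusted p = 0.144) and 0.05 without heterozygote library 3 (adjusted p = 0.860).

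Of 15 partners and reported targets of WT1 and TCF21, 2 rose and 3 fell against controls, and 1 rose and 3 fell against heterozygotes. Over all genes 7.19% rose and 8.03% fell against controls, and 6.87% rose and 6.7% fell against heterozygotes. *Pawr*, which encodes a WT1-binding repressor, rose in both (0.35 and 0.36, limma adjusted p = 0.0234 and 0.0232). *Podxl*, a sialomucin of podocytes and mesothelium, rose against controls alone (0.26, adjusted p = 0.031), with 0.19 and adjusted p = 0.111 against heterozygotes. *Nes* (nestin, an intermediate filament protein) fell by 0.45 and 0.39 on the log2 scale (adjusted p = 0.00114 and 0.00335), and *Pdgfra*, a receptor of mesenchymal progenitors, fell by 0.40 and 0.36 (adjusted p = 0.0107 and 0.0182). *Erbb3*, a neuregulin receptor, fell against controls (-0.53, adjusted p = 0.019) and *Snai1*, a factor of epithelial to mesenchymal transition, against heterozygotes (-0.73, adjusted p = 0.0142). The bHLH partners of TCF21 were not called, with *Tcf4* at -0.22 (adjusted p = 0.0573, all homozygote pools below all controls), *Tcf12* at -0.14 (adjusted p = 0.165) and *Tcf3* at 0.01 (adjusted p = 0.957) against controls. Against controls the calls of *Pawr* and *Podxl* were each lost in 7 of the 21 alternatives, 4 of which left out 1 library, that of *Erbb3* in 4 and that of *Pdgfra* in 2. Against heterozygotes *Pawr* lost its call in 6, *Pdgfra* in 5 and *Snai1* in 2, and *Nes* was called throughout in both comparisons.

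*Aldh1a2* (ENSMUSG00000013584, chr9:71063596-71144050, plus strand) encodes the main retinoic acid synthase of the epicardium. Its value was 34.6, 44.2 and 44.7 in control libraries, 44.4, 41.3 and 38.2 in heterozygote libraries and 64.4, 47.5 and 49.2 in homozygote replicates. The homozygote pools did not overlap the others, and replicate 1 was well above replicates 2 and 3. The differences of 0.38 against controls (95% interval 0.11 to 0.64, limma adjusted p = 0.0535) and 0.36 against heterozygotes (0.10 to 0.63, adjusted p = 0.0655) both missed the threshold. Against controls, the gene was called by DESeq2, when genes averaging under 5 were left out and without homozygote replicate 2 (3 of 21 alternatives), and without homozygote replicate 1 the difference was 0.24. Against heterozygotes it was 0.23 without that replicate (adjusted p = 0.214), and 0.36 and called without control library 1 (adjusted p = 0.0421).

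Among 16 other tested genes of the retinoic acid pathway, 2 rose against controls and 1 against heterozygotes, where 1 also fell. Over all genes 7.19% rose against controls, and 6.87% rose and 6.7% fell against heterozygotes. *Aldh1a1*, a second synthase, had 25.0, 28.6 and 22.9 in controls, 28.4, 21.8 and 30.3 in heterozygotes and 40.8, 40.9 and 43.1 in homozygotes. It rose by 0.70 against controls and 0.64 against heterozygotes (limma adjusted p = 0.00193 and 0.00387), and was called in all 21 alternatives. *Aldh1a3*, another synthase, was near the limit of detection in controls (0.512 to 1.47) and at 2.12 to 2.28 in homozygotes (1.08, adjusted p = 0.0385), a call that was lost under 9 alternatives. The receptor gene *Rxra* was lower than in heterozygotes (-0.33, adjusted p = 0.0217, a call lost under 6 alternatives, 3 of which left out 1 library) but not than in controls (-0.08, adjusted p = 0.583). *Rara* (-0.12, adjusted p = 0.432), the retinol dehydrogenase gene *Rdh10* (0.10, adjusted p = 0.719) and *Cyp26b1*, whose product degrades retinoic acid (-0.32, adjusted p = 0.132), were not called against controls. The median of the list was 0.02 against controls and -0.09 against heterozygotes.

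*Upk1b* (ENSMUSG00000049436, chr16:38773297-38800316, minus strand), which encodes a tetraspanin, showed the largest change of the 8 genes. Its value was 38.8, 44.3 and 43.5 in control libraries, 46.5, 44.3 and 49.2 in heterozygote libraries and 74.8, 76.1 and 70.3 in homozygote replicates. The lowest homozygote pool was well above the highest of the other 6, and the heterozygotes lay just above the controls (0.15, adjusted p = 0.703, not called). The rise was 1.74-fold against controls (0.80, SE 0.074, limma adjusted p = 1.91e-05) and 1.57-fold against heterozygotes (0.65, adjusted p = 0.000145), and it was called in all 21 alternatives in both comparisons.

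*Upk3b* (ENSMUSG00000042985, chr5:136514366-136521173, plus strand), whose product is used as a mesothelial marker, stood at 158, 184 and 154 in control libraries, 168, 184 and 167 in heterozygote libraries and 246, 212 and 218 in homozygote replicates. Again the homozygote pools lay above all others. The rise was 1.36-fold against controls (0.44, SE 0.078, limma adjusted p = 0.00241) and 1.30-fold against heterozygotes (0.38, adjusted p = 0.00702). The ratio of *Upk1b* to *Upk3b*, computed per kilobase after both had been seen, was 0.339 ± 0.030 in controls, 0.359 ± 0.037 in heterozygotes and 0.435 ± 0.037 in homozygotes (SD, n = 3). It was higher in every homozygote pool than in every other pool, and the exact permutation test (two-sided) gave p = 0.1 against either group, the smallest value that 3 against 3 allow. Of 6 uroplakins looked for, *Upk1b* and *Upk3b* were the only 2 in the table.

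The gene next to *Upk1b* rose with it. *B4galt4*, a galactosyltransferase gene 4135 bases away on the opposite strand, had 27.3, 31.5 and 29.9 in controls, 31.9, 38.4 and 31.3 in heterozygotes and 44.9, 50.4 and 43.5 in homozygotes (0.64 against controls and 0.45 against heterozygotes, limma adjusted p = 0.00101 and 0.00937). On the other side, *Igsf11* was low, with a mean of 2.13 in homozygotes and 2.44 in controls, and was not called (-0.15, adjusted p = 0.790). *Dtx2*, 5624 bases from *Upk3b*, differed by 0.25 (adjusted p = 0.113). Of the nearest tested genes on the 2 sides of the 8 members, the others called were *Krt18* as the neighbour of *Krt8*, and *Eif1*, 171220 bases from *Krt19* (0.25 against controls, adjusted p = 0.0437).

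**Figure D2:**
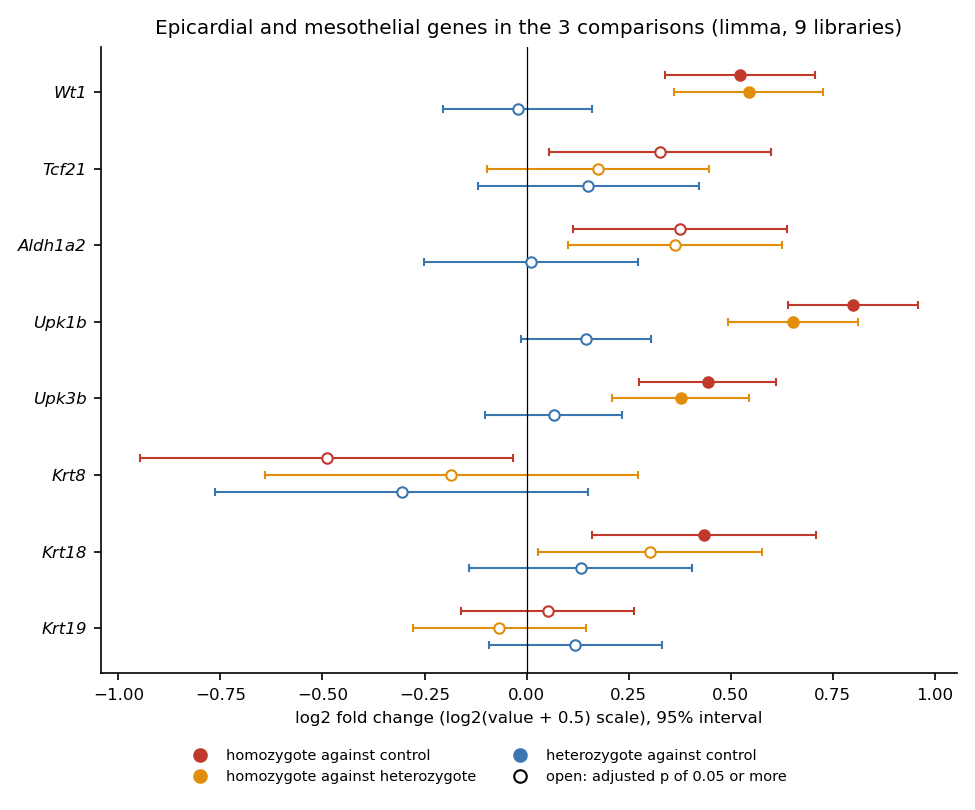
Log2 fold change (horizontal axis, log2(value + 0.5) scale) of the 8 genes in homozygotes against controls (red), homozygotes against heterozygotes (orange) and heterozygotes against controls (blue), with the 95% interval; filled points were called by limma. The filled points are those of *Wt1*, *Upk1b* and *Upk3b* in both homozygote comparisons and of *Krt18* against controls, while *Krt8* lies on the other side of 0.

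The differences of the keratins were of both signs. *Krt18* (ENSMUSG00000023043, chr15:101858647-101862457, plus strand), the type I partner, was at 47.2, 34.2 and 33.4 in control libraries, 35.4, 47.4 and 42.6 in heterozygote libraries and 51.2, 49.7 and 52.9 in homozygote replicates. Homozygote pools were tightly grouped and above all others, and the highest control was library 1, which also held the visceral endoderm and epithelial transcripts. *Krt18* rose 1.35-fold against controls (0.43, SE 0.127, limma adjusted p = 0.0348). The difference from heterozygotes was 0.30 (95% interval 0.03 to 0.58, adjusted p = 0.138) and was not called; it was 0.19 without heterozygote library 1 (adjusted p = 0.399). Without control library 1 it was 0.59 against controls (adjusted p = 0.00506). The call was lost without control library 2 (0.36, adjusted p = 0.120), without control library 3 (0.35, adjusted p = 0.148) and on leaving out any 1 homozygote replicate (0.41 to 0.46, adjusted p = 0.0628 to 0.0989), and in 9 of the 21 alternatives in all.

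*Krt8* (ENSMUSG00000049382, chr15:101827142-101834773, minus strand), the type II partner, is the next tested gene, 23874 bases away and transcribed in the opposite direction. Its value was 55.9, 40.6 and 45.5 in control libraries, 24.9, 42.3 and 51.6 in heterozygote libraries and 38.0, 27.0 and 35.9 in homozygote replicates. All homozygote pools were below all controls, but the heterozygotes spanned both ranges. The difference was -0.49 against controls (95% interval -0.95 to -0.03, limma adjusted p = 0.141) and -0.18 against heterozygotes (adjusted p = 0.622), and neither was called. Without control library 1, the highest, it was -0.37 (adjusted p = 0.341), whereas without heterozygote library 1, the lowest of all, the spread shared by the fit was smaller and *Krt8* was called lower than in controls (adjusted p = 0.0338), as it was when the 2 groups were fitted alone (adjusted p = 0.0369). *Krt8* also has a copy on chromosome 7 with 97.9% identity over 96.0% of the transcript, inside *Nlrp4e*, a gene that is not in the table, so reads could have been shared between them and its value is uncertain. None of the other 7 genes had a copy of at least 95% identity over at least 50% of its transcript; *Krt18* had 3 of at least 80%, the closest at 90.2%.

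Because keratins 8 and 18 build one filament, their levels were compared within each library, per kilobase of exon and after their values had been seen. The ratio of *Krt18* to *Krt8* was 1.09, 1.09 and 0.946 in control libraries, 1.83, 1.44 and 1.06 in heterozygote libraries and 1.74, 2.37 and 1.90 in homozygote replicates. It was thus close to equal levels in all controls, control library 1 included, and higher in every homozygote pool. Homozygotes were higher by 0.94 on the log2 scale (two-sided exact permutation p = 0.1, the smallest that 3 against 3 allow), and the difference from heterozygotes was 0.49 (exact p = 0.2), with heterozygote library 1 inside the homozygote range. *Krt8* enters every one of these ratios, with the uncertainty given above.

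**Figure D3:**
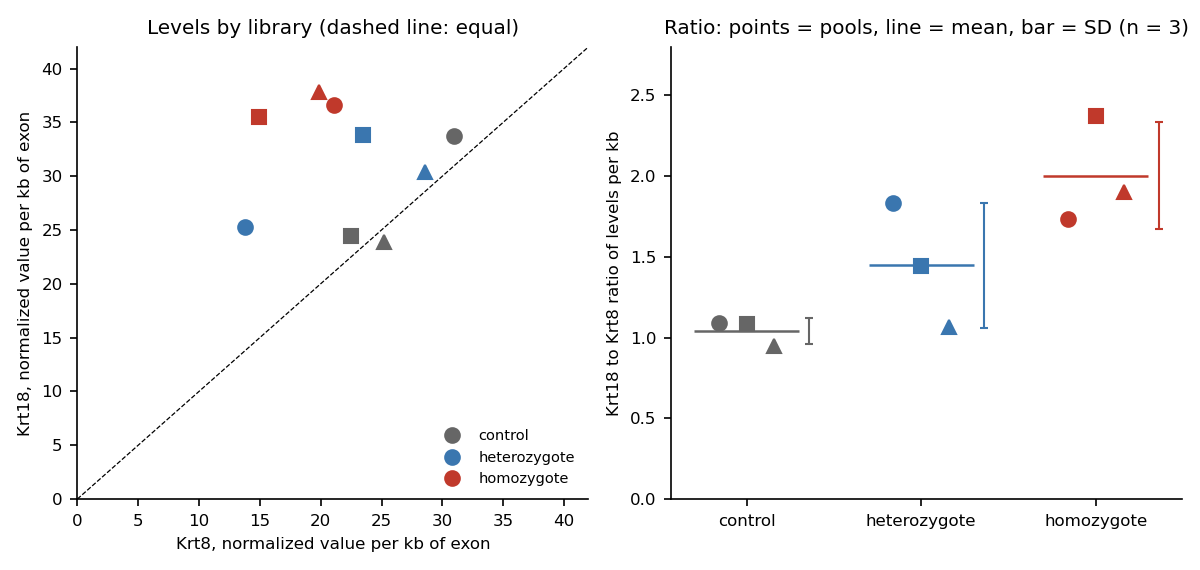
Left, *Krt18* against *Krt8* (normalized value per kilobase of exon on both axes) in each pool, with a dashed line at equal levels; right, their ratio, with the mean as a line and the SD as a bar (n = 3). Control points lie near the dashed line, with ratios of 0.946 to 1.09, and homozygote points lie above it, with ratios of 1.74 to 2.37.

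*Krt19* (ENSMUSG00000020911, chr11:100002124-100009979, minus strand), the smallest type I keratin, differed little between groups. It had 28.5, 29.4 and 30.0 in control libraries, 32.5, 27.9 and 35.6 in heterozygote libraries and 30.5, 28.0 and 32.8 in homozygote replicates. The 3 groups overlapped. The difference from controls was 0.05 (95% interval -0.16 to 0.26, limma adjusted p = 0.774). Of the 46 keratins named by number in the annotation, 9 were in the table and *Krt18* was the only one called in either homozygote comparison. *Krt7*, a type II keratin of simple epithelia and mesothelium, had 30.1, 28.8 and 26.2 in controls and 38.5, 29.9 and 35.1 in homozygotes (0.27, adjusted p = 0.105). *Krt20* was lower, at 4.66 to 7.96 in all libraries, and *Krt10*, *Krt79*, *Krt80* and *Krt222* had values under 5 in every library. The epidermal keratins *Krt5* and *Krt14* were not in the table.

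Of 11 tested genes of the desmosome and of other filament partners, none rose, and 3 fell in each homozygote comparison. Over all genes 8.03% fell against controls and 6.7% against heterozygotes. *Pkp2* (plakophilin 2) fell in both (-0.35 and -0.42, limma adjusted p = 0.0016 and 0.000572), as did *Dsc2* (desmocollin 2; -0.43 and -0.45, adjusted p = 0.0126 and 0.0119). *Plec*, which links filaments to junctions, fell against controls (-0.43, adjusted p = 0.0291) and *Des*, the muscle filament desmin, against heterozygotes (-0.35, adjusted p = 0.00788). Cardiomyocytes express these 4 genes too. The call of *Plec* was lost in 7 of the 21 alternatives, among them those without control library 3, homozygote replicate 2 or homozygote replicate 3, and over the 21 its difference was as small as -0.16 (adjusted p = 0.318 at most). *Dsc2* lost its calls in 4 and 3 alternatives, *Des* in 1 and *Pkp2* in 0. Vimentin (*Vim*; 0.06, adjusted p = 0.548) and desmoplakin (*Dsp*; -0.09, adjusted p = 0.620) were not called against controls.

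Other genes of the epicardium and mesothelium were taken from a list of 24, of which 19 were in the table. Against controls 8 rose and none fell (median 0.27), where 7.19% of all genes rose. Against heterozygotes 6 rose and none fell (median 0.25), where 6.87% of all genes rose. Between heterozygotes and controls limma, edgeR and DESeq2 called 0, and 2 had an unadjusted p under 0.05. *Tbx18*, a T-box factor of the proepicardium, had 102, 109 and 99.2 in controls, 104, 100 and 105 in heterozygotes and 129, 126 and 124 in homozygotes. It rose by 0.29 in both comparisons (limma adjusted p = 0.0047 and 0.00477). *Lrrn4*, a leucine-rich repeat protein of mesothelial cells, rose by 0.30 and 0.33 (adjusted p = 0.00869 and 0.00579). *Ezr* (ezrin, which ties the apical membrane to actin) had the lowest adjusted p of the list and rose by 0.51 and 0.38 (adjusted p = 0.000247 and 0.00227).

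The semaphorin gene *Sema3d* rose by 0.24 and 0.38 (limma adjusted p = 0.0283 and 0.00273), *Gpm6a*, a membrane glycoprotein gene, by 0.37 and 0.39 (0.0217 and 0.0189) and *Kcne1l*, a potassium channel subunit gene, by 0.47 and 0.46 (0.0146 and 0.0182). *Efemp1*, an extracellular matrix gene, rose against controls (0.47, adjusted p = 0.047) and stood at 0.36 against heterozygotes (adjusted p = 0.124). Not called against controls were *Bnc1*, a mesothelial zinc finger gene (0.35, adjusted p = 0.0567), *Scx* (0.64, adjusted p = 0.198), *Msln* (mesothelin; -0.20, adjusted p = 0.747) and *Rspo1* (-0.25, adjusted p = 0.269). *Msln* was at 0.592 to 1.68 in all libraries. *Tbx18*, *Lrrn4* and *Ezr* were called under all 21 alternatives, whereas against controls *Kcne1l* lost its call under 3, *Gpm6a* under 7, *Sema3d* under 9 and *Efemp1* under 12. Against heterozygotes *Gpm6a* lost its call under 5, *Kcne1l* under 4 and *Sema3d* under 0. Without control library 1, 5 of the 19 were called higher than in controls and 7 higher than in heterozygotes, and over all 21 alternatives these counts ran from 3 to 9 and from 4 to 8.

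The ratio of *Wt1* to *Tbx18* per kilobase was 0.339 ± 0.012 in controls, 0.336 ± 0.040 in heterozygotes and 0.400 ± 0.015 in homozygotes (SD, n = 3; exact permutation p = 0.1 against either, the smallest possible). The ratios of *Wt1* to *Upk3b* were 0.106 ± 0.002, 0.10 ± 0.004 and 0.112 ± 0.003 (exact p = 0.2 against controls and 0.1 against heterozygotes). The summed value of the 8 genes was 438 to 469 in controls, 446 to 482 in heterozygotes and 551 to 630 in homozygotes, so the homozygote pools lay apart. The sum of the other 19 was 907 to 984, 910 to 993 and 1142 to 1180. These sums are weighted to abundant genes, such as *Upk3b* in the first (means of 166 in controls and 225 in homozygotes). In the second, *Podxl* (305 and 366) and *Ezr* (166 and 237) were the highest.

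**Figure D4:**
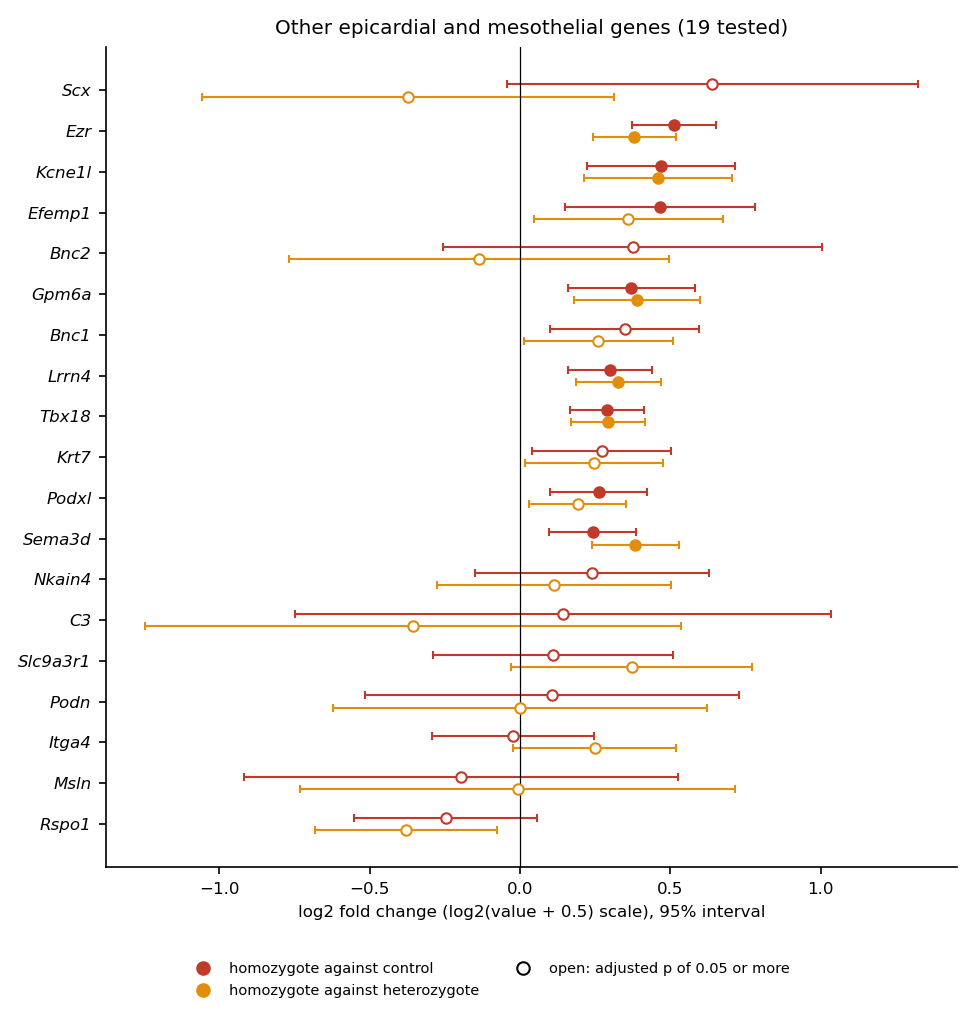
Log2 fold change with its 95% interval (horizontal axis) of 19 other epicardial and mesothelial genes in homozygotes against controls (red) and against heterozygotes (orange); filled points were called by limma. The 8 red and 6 orange filled points all lie to the right of 0, and the genes with intervals wider than 1 log2 unit, such as *Scx*, *C3* and *Msln*, have open points.

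Adhesion and signalling between epicardium and myocardium were read from 14 tested genes. Of these 1 rose and 5 fell against controls, where 7.19% of all genes rose and 8.03% fell. Against heterozygotes 2 rose and 4 fell, where 6.87% of all genes rose and 6.7% fell. *Tmsb4x* (thymosin beta 4) rose against heterozygotes (0.26, limma adjusted p = 0.0321) and was not called against controls (0.15, adjusted p = 0.192). *Epor*, the erythropoietin receptor gene, rose by 0.63 and 0.74 (limma adjusted p = 0.0082 and 0.00371); red cells express it too, and 9 of 12 blood markers rose in both comparisons. Over the alternatives 1 to 9 of the 12 were called higher against controls, with 2 without control library 3, and 5 to 9 against heterozygotes. *Itgb1*, the integrin beta 1 gene, fell by 0.32 and 0.27 (adjusted p = 0.00638 and 0.0157), and its partner *Itga4* was not called (-0.02 and 0.25). *Igf1r* (-0.36 and -0.31), *Insr* (-0.32 and -0.34) and the chemokine gene *Cxcl12* (-0.81 and -0.91) fell in both comparisons, and the matrix gene *Thbs1* fell against controls (-0.36, adjusted p = 0.0142). Several of these calls depended on single libraries. *Insr* lost its calls in 9 and 8 of the 21 alternatives, 6 and 4 of which left out 1 library, and *Cxcl12* in 9 and 6, of which 5 and 4 did. *Igf1r* lost them in 1 and 6, *Itgb1* in 0 and 4, *Epor* in 1 and 0, and *Thbs1* in 5. The call of *Tmsb4x* was lost in 9, 4 of which left out 1 library. *Igf2*, which the epicardium supplies to the myocardium, did not pass the test (0.01, adjusted p = 0.937).

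Markers of the other tissues in the samples were read beside these results. Blood markers summed to 35020 to 50307 in controls, 28182 to 47284 in heterozygotes and 61651 to 81612 in homozygotes. The 16 cardiomyocyte markers summed to 23557 to 26635, 26599 to 30387 and 22806 to 26495. Against controls 4 of the 16 fell and 2 rose, where 8.03% of all genes fell and 7.19% rose. *Nkx2-5*, a cardiac transcription factor gene, fell by 0.95 on the log2 scale (limma adjusted p = 7.38e-06) and *Ryr2*, a calcium release channel gene, by 1.13 (adjusted p = 0.000391), both called in all 21 alternatives, whereas the calls of *Actn2* and *Nppa*, which were also lower, were lost in 6 and 13. *Tnni3* rose (0.33, adjusted p = 0.00313) in all 21, and the call of *Myl4* (0.23, adjusted p = 0.0323) was lost in 11, among them the fit without control library 1. Against heterozygotes 6 of the 16 fell (*Nkx2-5*, *Ryr2*, *Actn2*, *Nppa*, *Myh6* and *Myh7*) and none rose, where 6.7% of all genes fell and 6.87% rose. *Nkx2-5* was at -0.55 there (adjusted p = 0.000764), and at -0.40 between heterozygotes and controls (adjusted p = 0.0974, not called), with every heterozygote library below every control library. Over the alternatives 2 to 5 were called lower against controls and 2 to 7 against heterozygotes. The 11 cushion mesenchyme markers summed to 2135 to 2344, 2101 to 2244 and 1599 to 2061. Of these 2 fell in each homozygote comparison (*Postn* and *Vcan*) and none rose. *Vcan* lost its calls in 0 alternatives against controls and 2 against heterozygotes, and *Postn* in 1 and 4. The 10 endothelial and endocardial markers summed to 1334 to 1477, 1288 to 1325 and 1121 to 1334. Against controls *Kdr* (-0.43, limma adjusted p = 0.0136), *Flt1* (-0.28, adjusted p = 0.0382) and *Npr3* (-0.39, adjusted p = 0.0018) fell and *Emcn* rose (0.26, adjusted p = 0.027), and *Kdr* also fell against heterozygotes (-0.37, adjusted p = 0.0326); over the alternatives 1 to 7 of the 10 were called lower against controls. The call of *Npr3* was kept in all 21, that of *Flt1* was lost in 10 (with -0.10 and adjusted p = 0.507 at the least), that of *Emcn* in 7 and those of *Kdr* in 5 against controls and 8 against heterozygotes, 5 of the 8 being fits that left out 1 library. The part of these shifts in the values of the 8 genes was not tested.

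Of the 20 foregut and simple epithelium markers 11 were in the table, and *Foxa1*, *Foxa2*, *Foxa3*, *Shh*, *Nkx2-1* and *Pax9* were not; *Sox17* alone was called (1.15 against controls, limma adjusted p = 0.00438), and it is also an endothelial gene. The median difference of the 11 against controls was -0.14, and 0.89 without control library 1. *Cdh1* and *Epcam*, which define simple epithelia, had 15.7 and 4.60 in control library 1 and at most 5.79 and 4.76 elsewhere. Of the 16 tested visceral endoderm and liver markers limma called 0 against controls (3 at an unadjusted p under 0.05, against 4145 of all 14011 genes), and over the alternatives none was called higher and up to 2 lower. Their median difference against controls was -1.18, and -0.20 without control library 1. Against heterozygotes all 16 had a positive difference (median 0.74), with sums of 116 to 145 in heterozygotes and 124 to 232 in homozygotes. *Serpina1a* alone was called higher there, a call lost in 9 of the 19 alternatives that gave it a value, and up to 4 were called higher over the alternatives. Heterozygotes were below controls in all 16 (median -2.06, and -1.07 without control library 1), and in 9 of them every heterozygote library was below every control library; limma called none, up to 1 was called lower over the alternatives, and 11 had an unadjusted p under 0.05, against 1032 of all 14011 genes. The homozygote pools were split. *Alb*, the albumin gene, was at 5.79 and 6.17 in homozygote replicates 1 and 3 and 4.73 and 5.34 in control libraries 2 and 3, but at 0.254 in homozygote replicate 2, 0.0631 to 0.245 in heterozygote libraries and 0.175 in control library 1. *Afp* was at 50.8 and 55.6 in homozygote replicates 1 and 3, 47.6 and 49.2 in control libraries 2 and 3, 3.64 in homozygote replicate 2 and 3.81 to 9.66 in heterozygote libraries. The part of these markers in the values of the 8 genes was not tested. Of the 7 surface ectoderm markers 3 were in the table, none was called and 0 had an unadjusted p under 0.05.

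**Figure D5:**
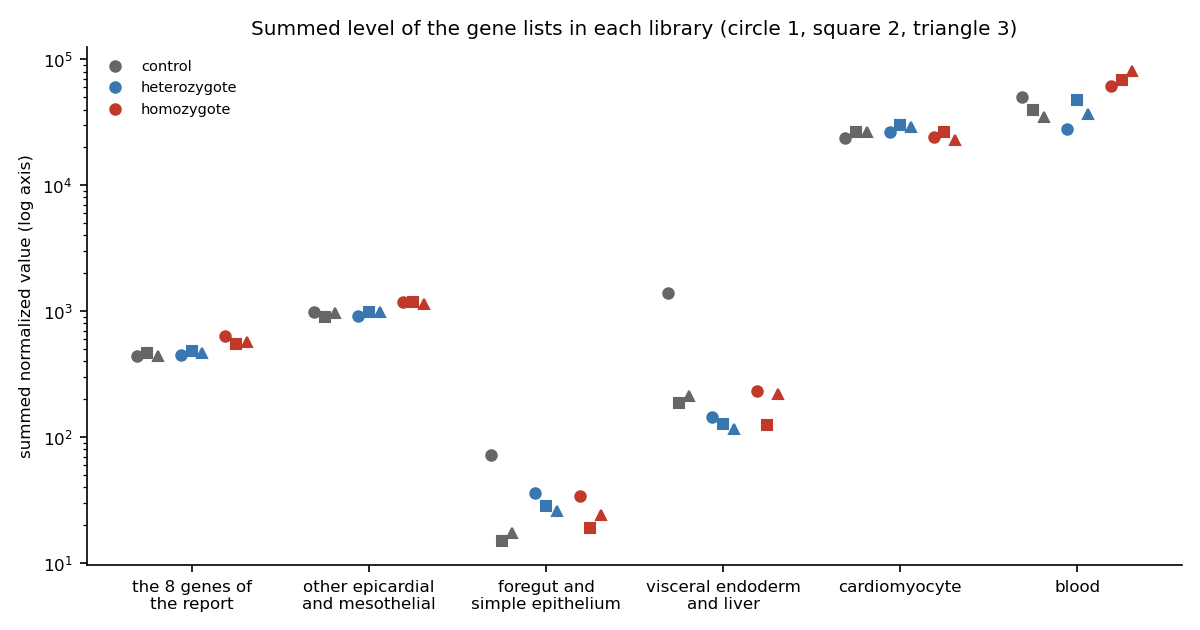
Summed normalized value (vertical axis, log scale) of 6 gene lists in each pool, by genotype. Control library 1 (grey circle) stands apart for visceral endoderm and liver (1404 against 116 to 232) and for foregut and simple epithelium (71.4 against 14.8 to 35.7), and homozygote points (red) are the highest for both epicardial lists and for blood.

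Correlations across the 9 libraries describe these pools only, since they rest on the group differences given above and on libraries of unequal depth. On the log2 scale *Wt1* correlated with *Upk3b* (Pearson r = 0.97), *Upk1b* (0.91), *Aldh1a2* (0.79) and *Krt18* (0.70). *Krt8* ran the other way for *Tcf21* (-0.80) and was unrelated to *Krt18* (0.01), and *Krt19* was near 0 with all 7 others (-0.16 to 0.10). Homozygote replicate 1 held the highest value of all 9 libraries for *Wt1*, *Tcf21*, *Aldh1a2* and *Upk3b*. Among 11128 genes averaging at least 5, *Wt1* ranked second in likeness to *Upk3b*, after *Tpd52l2* (0.98) and ahead of *Uqcrq* (0.97). The genes most like *Wt1* were *D16H22S680E* (0.98), *Gm13092* (0.98) and *Ppp1r1b* (0.97), and those most like *Upk1b* were *Pgam2* (0.99), *Cdc123* (0.99) and *Ccdc136* (0.99). *Pgam2*, the muscle phosphoglycerate mutase gene, rose from 140 in controls and 161 in heterozygotes to 303 in homozygotes. For *Aldh1a2* they included *Gm5776* (0.96) and *Cmtm3* (0.94), for *Krt18* *Tmc6*, *Nolc1* and *Aqp3* (0.98 to 0.94), for *Krt8* *Frs2*, *Scarb1* and *Thoc6* (0.93), for *Tcf21* *Pank4*, *Rbm42* and *Sdc1* (0.94 to 0.92) and for *Krt19* *Atg16l2*, *Exosc7* and *Ppp1r8* (0.94 to 0.92).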

How the data were processed

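RNA from 9 pools of 6 E10.5 hearts was sequenced by the authors after polyA selection. The submitters' processing notes name CASAVA 1.8, cutadapt 1.6.1, RSEM 1.20, Bowtie2 0.12.7, limma and build NCBIM37. The authors deposited 1 table of normalized signal values for 14011 genes. Each deposited signal value equals whole reads plus 0.5, scaled to an effective library size (the CPM scale), and reads were recovered for 100% of values (within 0.1 of a whole number), from 4294537 to 11629365 per library. Control columns are named Het and heterozygote columns DH; they were assigned through the growth protocol and the group averages of the study, and carry no number of a labelled sample. Gene models were those of GENCODE M1, which placed 13987 genes.

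Values were analyzed as log2(value + 0.5) using limma (version 3.58.1, R version 4.3.3) on all 9 libraries at once, with a trend of variance with level; p-values were adjusted by Benjamini-Hochberg across the table (called under 0.05). Copies were searched with BLAST+ 2.17.0. The 8 genes, the lists and the ratios were chosen with earlier results of these data known. Named were the 8 genes; up to 8 called genes per list by adjusted p, with genes that define a role; keratins and uroplakins; the nearest tested neighbours; and the 3 genes most correlated with each member among genes averaging at least 5 (1 of these is not reported here). The 21 alternatives were other pseudocounts, filters, fits, normalizations and thresholds, edgeR 4.0.16 and DESeq2 1.42.0 on the recovered reads, removal of the gene length trend, a replicate block and leaving out each library. The method was tested on simulated reads with the same spread setting for every gene and larger changes than those of the 8 genes. How it performs on changes of the present size was not tested.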

Additional observations from a re-analysis of the deposited data

How the results depend on the processing

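Over the 21 alternatives the number of the 8 genes called ran from 3 to 5 against controls and from 2 to 4 against heterozygotes, and it was 0 between heterozygotes and controls in all of them. *Wt1* and *Upk1b* were called in both homozygote comparisons under all 21, *Upk3b* against controls under 21 and against heterozygotes under 20 (adjusted p = 0.0504 without the mean-variance trend). *Krt18* lost its call against controls at an adjusted p under 0.01, without the trend, with the gene length trend removed, with the replicate block and in 5 of the leave-one-out fits. Leaving out 1 library at a time gave 3 to 5 genes against controls and 3 to 4 against heterozygotes. Some differences of the 8 genes that were not called changed sign. *Krt19* against controls was -0.007 with the length trend removed and -0.003 without homozygote replicate 3 (-0.003 to 0.11 over the fits that left out 1 library). Against heterozygotes, *Krt8* was -0.18 in the main fit. Without heterozygote library 3, *Krt8* was 0.036 against heterozygotes (-0.483 to 0.036 over such fits) and *Krt19* 0.012 (-0.161 to 0.012). Between heterozygotes and controls *Wt1* was 0.044 without control library 2, 0.031 without heterozygote library 1 and 0.002 without heterozygote library 3 (-0.097 to 0.044), and *Aldh1a2* was -0.107 without control library 1 and -0.041 without heterozygote library 1 (-0.107 to 0.075). The cause was not tested. With the replicate block, by the number ending each column name, 3 genes were called against controls, 3 against heterozygotes and 0 between heterozygotes and controls; same-numbered libraries did not deviate together (correlations of -0.043 to 0.085), so the numbers are not taken as pairs. Counts over all genes moved most with the threshold, from 2133 to 858 against controls and from 1901 to 722 against heterozygotes at an adjusted p under 0.01, and to 1049 against controls without control library 3. Without the trend they were 1196 and 1063, and without homozygote replicate 3 they were 1267 and 1023; without 1 heterozygote library, 1223 to 1268 genes were called against heterozygotes. Between heterozygotes and controls 20 became 13 at the stricter threshold or without heterozygote library 3, 10 without the trend and 40 with DESeq2. With the length trend removed, 844 of 1541 genes called against controls were higher, compared with 1008 of 2133. The design of 3 pools against 3 gives a single gene no exact p below 0.1.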
